A study of Mus musculus with 18 samples.

Results

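Binding sites of domain-swapped Foxa proteins were examined where they lie close together on the chromosome. Overlapping peaks (1 bp or more) of 8 Foxa ChIP-seq lists were merged into 24999 regions. Regions on a chromosome were then chained when the gap to the next one was 12.5 kb or less, and chains of 4 or more regions were kept as clusters. This gave 807 clusters holding 4103 regions, 16.4% of all regions. Chains of 2 or 3 regions held 9442 regions, and 11454 regions stood alone. The clusters were chosen by the peak positions in all 8 lists, so their number, length, content and scores are described without a test. Tests were kept for lists that had taken no part in building the clusters they were compared with.

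The Foxa family of forkhead transcription factors acts in endoderm and liver. Its DNA-binding domain has a winged-helix fold related to that of linker histone, and Foxa proteins are known as pioneer factors because they can bind sites in closed chromatin and make them reachable for other regulators. In liver, many of their sites lie in enhancers that also bind Hnf4alpha, a nuclear receptor that controls hepatocyte genes. Sites of such regulators often sit in groups along a chromosome. The joining distance used here is the one commonly used to stitch neighbouring enhancers into larger units.

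The cells were induced hepatocyte-like (iHep) cells, made from embryonic fibroblasts of C57BL/6 mice (embryos of 13.5 days post coitum) by infection with Hnf4alpha and 1 Foxa chimera. All 8 groups thus shared strain, starting cell and Hnf4alpha. Foxa1-N3 and Foxa2-N3 are Foxa1 and Foxa2 with the N-terminal domain of Foxa3, and Foxa1-C3 and Foxa2-C3 are the same proteins with its C-terminal domain. Foxa3-N1 and Foxa3-N2 are Foxa3 with the N-terminal domain of Foxa1 or Foxa2, and Foxa3-C1 and Foxa3-C2 are Foxa3 with the C-terminal domain of Foxa1 or Foxa2. Chromatin was precipitated with a Foxa3 antibody from Foxa1-N3, Foxa2-N3, Foxa3-C1 and Foxa3-C2, with a Foxa1 antibody from Foxa1-C3 and Foxa3-N1, and with a Foxa2 antibody from Foxa2-C3 and Foxa3-N2. The antibody therefore followed the N-terminal domain, and these 2 cannot be told apart. Each group was 1 library with no replicate, and the labels name neither the promoter that drove the chimeras nor the number of cultures. Identity of the cells could not be checked, because peak lists hold no expression values. The lists ran from 956 peaks (Foxa1-N3) to 16543 peaks (Foxa3-N2), read depth is unknown, and list length moves with most counts below. Positions are on mm9. The gene table and promoter sequences at hand are on another build, so no gene is assigned to a cluster and no sequence is printed.

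Clusters were mostly short groups of few regions. Of the 807, 609 (75.5%) held 4 or 5 regions, 24 held 10 or more, and the largest held 38. Their length ran from 3652 to 77029 bp with a median of 19807 bp, and 11 were longer than 50 kb. Regions inside them followed each other at a median gap of 3801 bp (lowest 5 bp, highest 12496 bp), against a median of 26752 bp between neighbouring regions in general. Gaps under 1000 bp made up 18.3% of the gaps in clusters. Together the clusters covered 17.2 Mb, 0.673% of the sequence between the first and last region of each chromosome.

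The cut between cluster and chain was not a natural break in these data. There were 426 chains of 4 regions just inside it and 1110 chains of 3 just outside. Gaps in the last 500 bp below the joining distance numbered 201, and gaps in the first 500 bp above it 198. Clusters were found on every chromosome from which regions were listed. The share of regions that lay in clusters was lowest on chromosome X, at 8.26%, and highest on chromosomes 17 and 19, at 21.9% and 20.9%. Regions in clusters had a median width of 484 bp, and regions outside them 453 bp.

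Sites of 1 construct were the most frequent kind of region in clusters, but they made up a smaller share there than elsewhere. Of the 4103 regions in clusters, 1779 (43.4%, 95% Wilson interval 41.8 to 44.9%) carried a peak in 1 list, against 47.5% of all regions. Regions with a peak in 4 or more lists numbered 1087 (26.5%, 25.2 to 27.9%), against 21.6% of all regions. Regions with a peak in 6 or more lists numbered 566 (13.8%, 12.8 to 14.9%), against 10.2% of all regions. Regions with a peak in all 8 lists numbered 131 (3.19%, 2.70 to 3.78%), against 2.12% of all regions. The shares changed in order from isolated regions to chains of 2 or 3 and to clusters: 50.6, 45.6 and 43.4% were found in 1 list, and 1.55, 2.34 and 3.19% in all 8. This order did not continue within clusters. In those of 8 or more regions (656 regions), 46.5% were found in 1 list, 24.4% in 4 or more and 2.13% in all 8. The cluster with the most regions, 38, of which 37 were found in 1 list, is among them. The Wilson intervals cover counting error only, and neighbouring regions of 1 library are not independent.

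**Figure D1:**
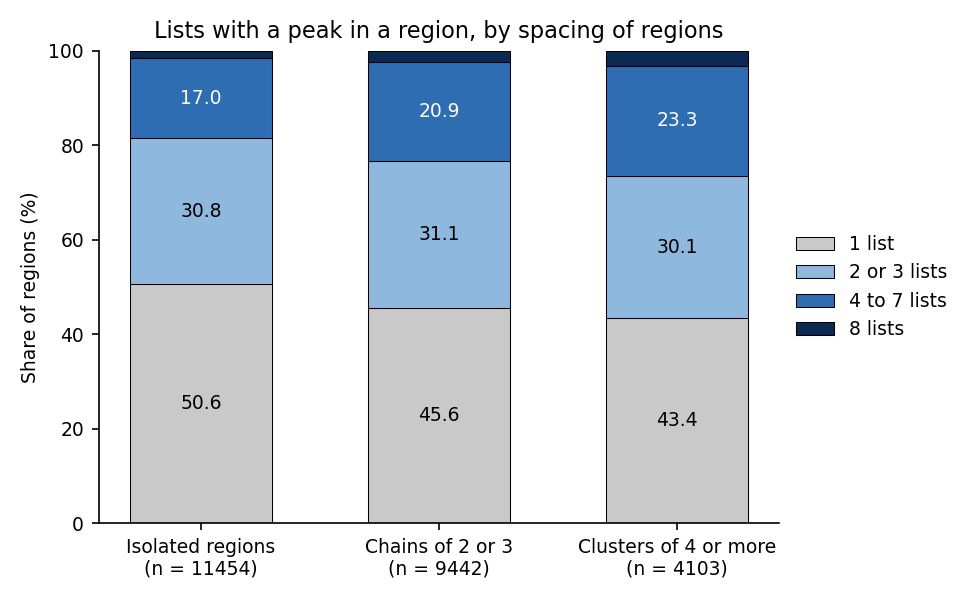
Share of regions (%) with a peak in 1, 2 or 3, 4 to 7 or 8 of the Foxa lists, for isolated regions, chains of 2 or 3 regions and clusters of 4 or more; n is the number of regions. The share found in 1 list falls from 50.6% to 43.4% from left to right, and the share found in 4 to 7 lists goes from 17.0% to 23.3%.

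The difference in regions found in 4 or more lists between clusters and the rest did not rest on 1 list. With each list left out in turn and the clusters rebuilt, regions found in 4 or more lists made up 22.1 to 26.4% inside clusters and 17.2 to 20.5% outside. With both Foxa2-antibody lists left out, the shares were 26.1% inside and 20.5% outside, from 181 clusters. With at most the 3594 strongest peaks of each list, 35.9% of the regions in 66 clusters were found in 4 or more lists, against 28.2% outside. With the 956 strongest peaks of each list the order turned, at 15% inside and 26.6% outside, but only 4 clusters with 20 regions were left.

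Most clusters mixed shared and single sites. A region found in 4 or more lists was present in 594 clusters (73.6%), and 531 clusters held such a region beside at least 1 region of a single list. Over all regions, 21.6% were found in 4 or more lists and 47.5% in 1. Groups of 4 or more regions can hold both kinds at these shares alone, and whether clusters mixed them more often was not tested. Of the 1779 single-list regions in clusters, 1148 (64.5%) lay in a cluster that also held a region of 4 or more lists. Single-list sites were the majority, meaning more than 50% of the regions, in 212 clusters (26.3%), and sites of 4 or more lists were the majority in 69 (8.55%). In the other 526 clusters (65.2%) neither kind was. Few clusters were pure: 27 held single-list regions only, and 5 held only regions of 4 or more lists. A region of all 8 lists was present in 124 clusters, and 7 clusters had 2 or more of them.

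Within a cluster the strongest peak of a construct usually sat on a shared site. Foxa3-N2 had at least 2 peaks in 759 clusters, and its highest-scoring one there lay in a region of 4 or more lists in 64.8%, against 25.3% of its other regions in those clusters. For Foxa2-C3 the values were 70.7 and 30.03% over 683 clusters, and for Foxa3-C1 79.0 and 55.9% over 386. The other 4 constructs with single-list regions in clusters showed the same order. In Foxa1-N3, whose short list had at least 2 peaks in 21 clusters, both values were 100%. The score is the authors' peak score, and the part of signal strength in this order was not tested. The same comparison was not made outside clusters, so the order is not shown to be particular to them.

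The 2 constructs mapped with the Foxa2 antibody filled most of the clusters, as they did most of all regions. Foxa3-N2 had a peak in 2951 of the cluster regions (71.9%; 66.0% of all regions) and Foxa2-C3 in 2524 (61.5%; 54.8%). Foxa3-C1 followed with 32.8% (30.05% of all regions), then Foxa3-N1 with 30.9% (30.4%), Foxa2-N3 with 24.9% (20.9%) and Foxa1-C3 with 20.7% (19.2%). Foxa3-C2 filled 17.1% (14.3%) and Foxa1-N3 4.51% (3.81%). The order in clusters was thus the order of list length, except that Foxa3-C1, with 7533 peaks, stood before Foxa3-N1, with 7625.

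**Figure D2:**
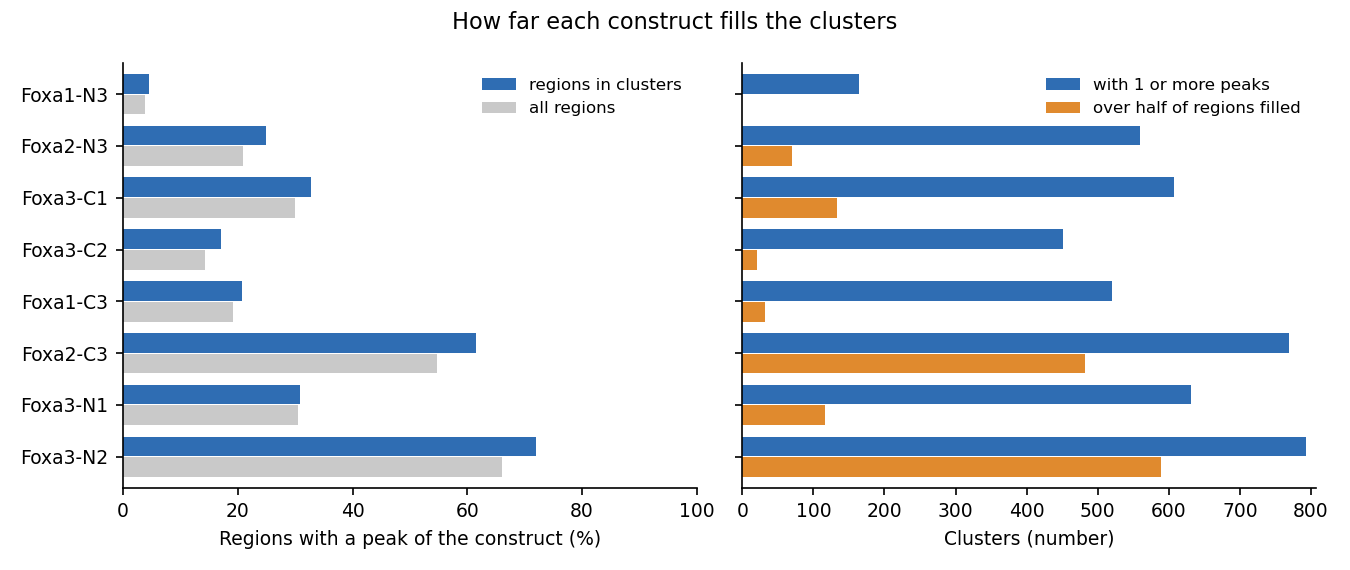
Left, share of the regions in clusters (blue) and of all regions (grey) that carry a peak of each construct (%). Right, number of the 807 clusters with at least 1 peak of the construct (blue) and with more than 50% of their regions filled by it (orange); Foxa3-N2 and Foxa2-C3 exceed all other constructs in both panels.

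Read from the side of each list, between 16.6% (Foxa3-N1) and 19.7% (Foxa3-C2) of a construct's regions lay in clusters, against 16.4% of all regions. Each list helped to build these clusters. With each list left out of the building, the shares of its peaks differed more, from 9.16% (Foxa3-N2) to 19.6% (Foxa3-C2), as given below. The Wilson intervals were 15.8 to 17.5% for Foxa3-N1, 17.3 to 18.5% for Foxa3-N2 and 18.4 to 21.0% for Foxa3-C2. Foxa3-N2 reached 793 clusters and Foxa2-C3 769, while the shortest list, Foxa1-N3, reached 164. The Foxa3-N2 list filled more than 50% of the regions in 589 clusters and every region in 212, and Foxa2-C3 did so in 482 and 140. Foxa3-C1 filled more than 50% in 133 clusters, Foxa3-N1 in 117, Foxa2-N3 in 70, Foxa1-C3 in 32, Foxa3-C2 in 21 and Foxa1-N3 in 0. Foxa3-N2 alone had the most regions in 344 clusters, Foxa2-C3 in 201, Foxa3-C1 in 31, Foxa3-N1 in 18, Foxa2-N3 in 7 and Foxa1-C3 in 1, and 205 clusters had a tie for the lead.

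Single-list sites in clusters came largely from the same 2 constructs. Foxa3-N2 supplied 925 of them, Foxa2-C3 498, Foxa3-C1 203, Foxa3-N1 92, Foxa2-N3 41, Foxa3-C2 11 and Foxa1-C3 9, and Foxa1-N3 supplied 0. Foxa3-N2 and Foxa2-C3 together held 80.0% of the single-list regions in clusters and 73.7% of such regions in general. For each of the 8 constructs the share of its regions that no other list held was lower in clusters than outside, from 31.3 against 36.2% in Foxa3-N2 to 0 against 1.17% in Foxa1-N3. The combination of Foxa2-C3 with Foxa3-N2 and no other list was the most frequent one of more than 1 list, with 529 cluster regions (12.9%; 11.6% of all regions). Next came presence in all lists but the short Foxa1-N3 list, with 219 regions (5.34%; 3.53%).

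Pairs of constructs also met more often inside clusters than outside. The Jaccard index, the number of regions with peaks of both constructs divided by those with a peak of either, had a median of 0.334 over the 28 pairs in clusters and 0.277 outside. Foxa2-C3 and Foxa3-N2, which share both terminal domains and the antibody and differ in the DNA-binding domain, had the highest index in clusters, 0.502 (0.431 outside). Foxa2-N3 and Foxa3-N1 followed with 0.479 (0.366), although they differ in the DNA-binding domain, both ends and the antibody. Foxa1-C3 and Foxa3-N1, alike in both ends, had 0.427 (0.328). Foxa3-C1 and Foxa3-C2, which differ in the C-terminal domain, had 0.431 (0.351). These indices depend on list length, and pairs share constructs, so they are given without a test.

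The cluster richest in shared sites lay on chromosome 5 (chr5:90843613-90917963), with 17 regions over 74.4 kb. Of these, 11 carried peaks in 4 or more lists and 2 in all 8. Foxa2-N3 and Foxa3-N2 each had peaks in 14 of the regions, Foxa2-C3 in 13, Foxa3-C1 and Foxa3-N1 in 11, Foxa3-C2 and Foxa1-C3 in 7, and Foxa1-N3 in 2. All 8 constructs were thus present, and no layout of the chimera was missing. The region at its far end (chr5:90917202-90917963) had authors' scores of 154.0 for Foxa3-N2, 153.3 for Foxa2-C3, 83.1 for Foxa3-N1, 30.5 for Foxa3-C1, 29.2 for Foxa2-N3, 27.2 for Foxa1-C3, 22.1 for Foxa3-C2 and 8.67 for Foxa1-N3. The 2 lists with the Foxa2 antibody had the highest scores there. A stretch between 46 and 63 kb from the start held 3 regions found in Foxa2-N3 alone. This was the cluster with the most regions of Foxa2-N3 alone. Within it a cluster of 10 regions was left when lists kept at most their 3594 strongest peaks, and 1 of 4 regions when they kept 956.

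**Figure D3:**
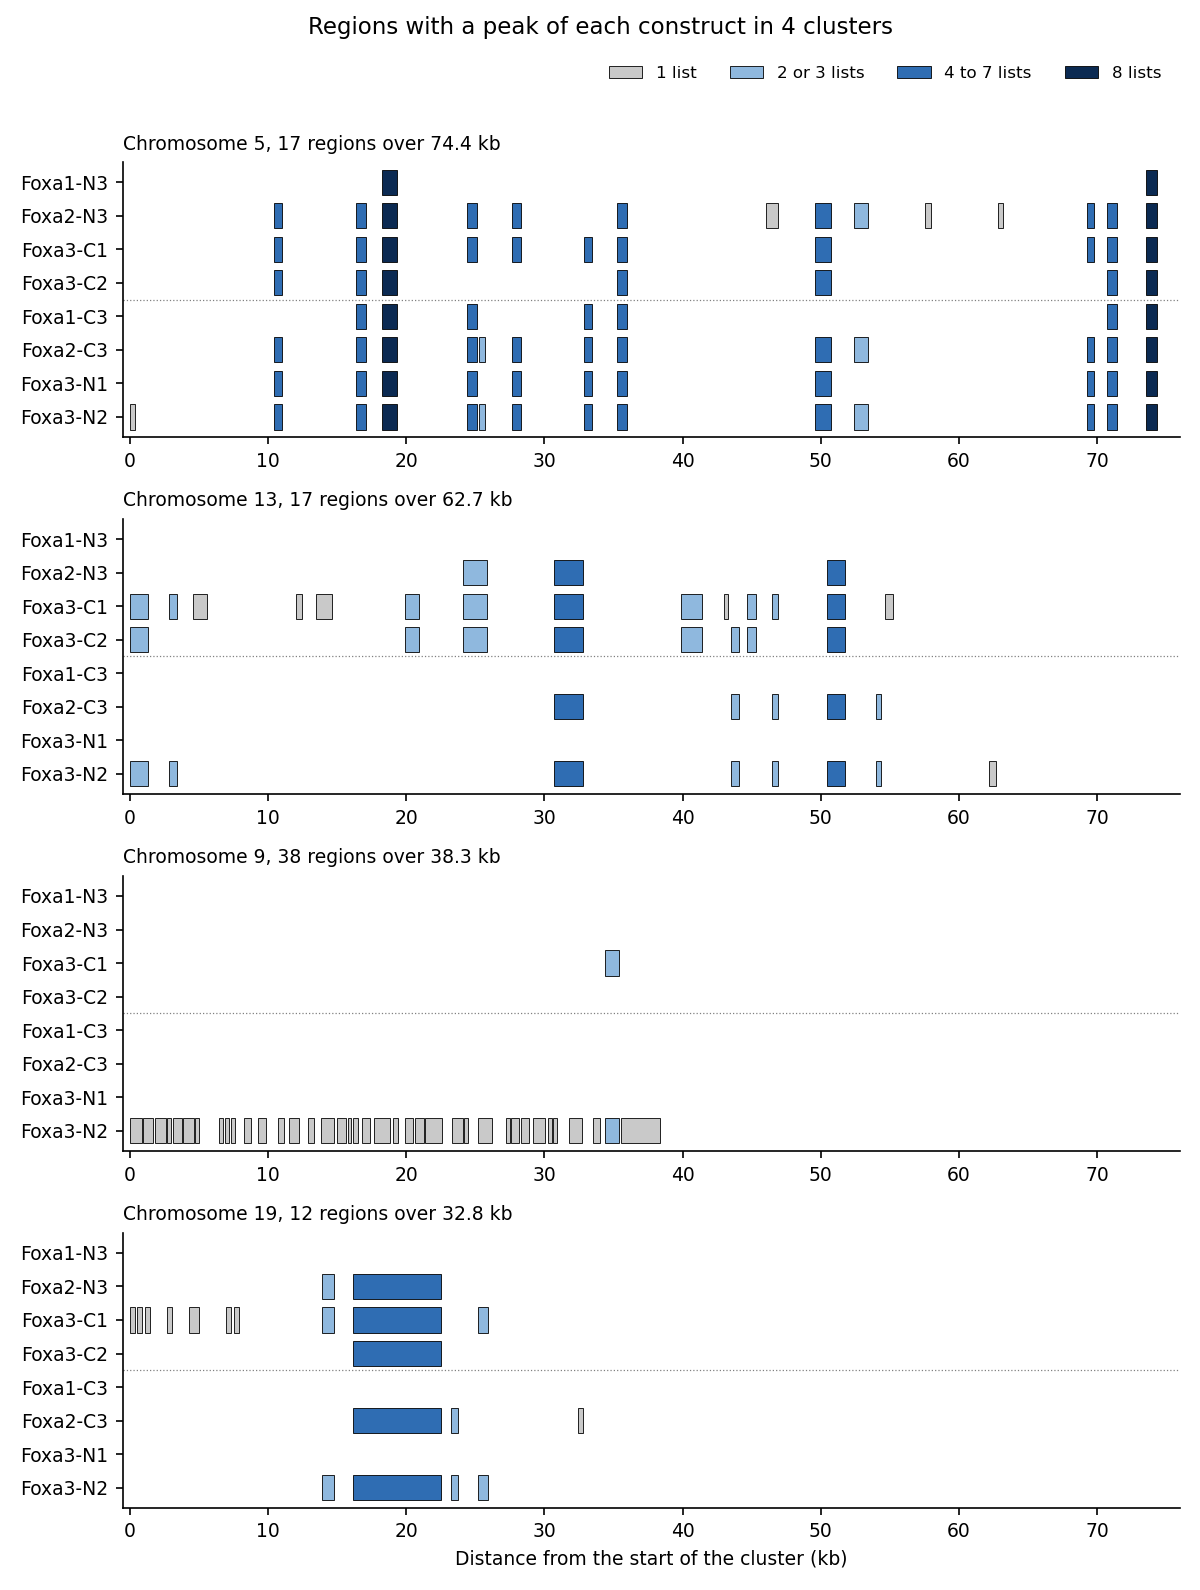
Regions with a peak of each construct (rows) along 4 clusters, against the distance from the cluster's start (kb). Bars span the whole merged region and darker shades mark regions found in more lists. The chromosome 5 cluster is filled by all constructs, the chromosome 9 cluster by Foxa3-N2, and those on chromosomes 13 and 19 have no peak of Foxa1-N3, Foxa1-C3 or Foxa3-N1.

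The place of shared sites differed between other clusters. On chromosome 4 (chr4:108097137-108133549; 12 regions over 36.4 kb) neighbouring regions at 3.04 and 4.91 kb from the start were found in all 8 lists, with scores from 27.2 to 156.7 and from 34.4 to 231.5. Of the remaining 10 regions, 6 were found in 1 list, and of these 4 belonged to Foxa2-C3. On chromosome 10 (chr10:126575647-126605686; 30 kb) all 5 regions were found in 4 or more lists and 2 of them in all 8. The longest cluster, on chromosome 9 (chr9:69841374-69918402; 77.0 kb), had 16 regions, of which 7 were found in 1 list and 7 in 4 or more. Foxa2-C3 filled 13 of them, Foxa3-N2 10 and Foxa3-C1 8.

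Most of the next clusters by number of regions held both kinds of site, with Foxa2-C3 or Foxa3-N2 in the lead. The cluster on chromosome 5 at chr5:32320087-32384890 had 7 of 13 regions in 1 list, and Foxa2-C3 and Foxa3-N2 filled 9 each. That on chromosome 1 (chr1:43202322-43260646) also had 7 of 13 regions in 1 list, with Foxa2-C3 in 10 regions and Foxa3-N2 in 6. The chromosome 7 cluster (chr7:128929380-128978913) had 5 of 12 regions in 1 list and 5 in 4 or more, and Foxa3-N2 filled 9 and Foxa2-C3 8. The third cluster of 12 regions, on chromosome 19 (chr19:5823208-5856036), had 8 regions in 1 list and 1 in 4 or more, and Foxa3-C1 led with 10. On chromosome 15 (chr15:3171279-3225354; 11 regions) Foxa2-C3 and Foxa3-N1 led with 8 regions each, before Foxa3-C1 with 7 and Foxa3-N2 with 6. The 3 longest clusters outside the 10 with the most regions had 10 regions each: chr17:31977274-32041527 (64.3 kb), chr1:172358367-172415602 (57.2 kb) and chr6:47689735-47743387 (53.7 kb). In the last, Foxa3-N2 filled all 10 regions and 7 were its own.

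The cluster with the most regions was a stretch of Foxa3-N2 peaks at the start of chromosome 9 (chr9:3000019-3038366). All 38 of its regions carried a Foxa3-N2 peak, 1 also carried a Foxa3-C1 peak, and the other 6 constructs had none. Its peaks were not among the strong ones of the list: scores ran from 7.996 to 32.8 with a median of 14.5, and the best rank was 4503 of 16543. Regions covered 66.4% of its length, with a median region width of 603 bp. It begins at the first listed position of the chromosome. Whether repeated sequence lies in this stretch was not checked, since no mm9 sequence or annotation was at hand. Without it the share of cluster regions found in 1 list was 42.9% in place of 43.4%.

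Some constructs had their own clusters of lesser size. On chromosome 9 (chr9:34880064-34909699) Foxa2-C3 filled all 10 regions over 29.6 kb and was alone in 8 of them. Their scores ran from 8.93 to 24.7. The Foxa3-C1 construct was alone in 7 of the 12 regions of the chromosome 19 cluster at chr19:5823208-5856036, in a row over the first 8 kb, with scores from 8.35 to 13.2. Foxa3-N1 was alone in 3 of 5 regions at chr18:21079286-21097641. Foxa1-C3 was alone in 2 of 4 regions at chr2:49665443-49671752, and Foxa3-C2 in 2 of 6 at chr17:31260432-31275789. Each of these is 1 library, so no spread can be given.

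Clusters reached by 1 construct only numbered 14, and 12 of these were of Foxa3-N2 and 2 of Foxa2-C3. The one with the most regions had 7 Foxa3-N2 regions within 5.6 kb (chr17:39979967-39985560). Repeated sequence was not checked there either. At the other end, 140 clusters (17.3%) held peaks of all 8 constructs and 212 (26.3%) of 7. The 4 constructs with the Foxa3 C-terminal domain, Foxa3-N1 and Foxa1-C3 with the Foxa1 antibody and Foxa3-N2 and Foxa2-C3 with the Foxa2 antibody, filled 127 clusters with no peak of the other side. The 4 with the Foxa3 N-terminal domain did so in 1, on chromosome 7 (chr7:149835972-149845444), where Foxa3-C1 filled 4 of 6 regions and Foxa2-N3 and Foxa3-C2 filled 2 each. The first side holds both of the longest lists, and 54 of the 127 clusters held Foxa2-C3 or Foxa3-N2 peaks alone. Of all regions, 23.3% were found in Foxa3-N2 alone, 11.7% in Foxa2-C3 alone and 11.6% in both and no other list. Foxa3-N1 alone held 4.27%, and on the other side Foxa3-C1 alone held 5.45% and Foxa2-N3 alone 1.40%. The part of list length in this difference was not tested.

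To ask whether a construct also had peaks of its own in clusters that it did not help to define, each list was left out in turn and clusters were rebuilt from the other 7. Peaks of the left-out list that met no region of the others were then counted in the gaps of those clusters and outside them. Foxa3-N2 placed 87 new peaks in 8.48 Mb of gaps, 10.3 per Mb, against 2.24 per Mb outside (5694 peaks). Foxa2-C3 placed 7.21 per Mb in gaps (79 peaks) against 1.12 per Mb, and Foxa3-C1 4.002 (55 peaks) against 0.515. Those 3 lists gave the bulk of the new peaks.

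Counts were small in the other lists. New peaks in gaps numbered 13 in Foxa3-N1, 5 in Foxa2-N3 and 3 each in Foxa3-C2 and Foxa1-C3. Their densities were 0.921, 0.342, 0.199 and 0.199 per Mb, against 0.415, 0.135, 0.0418 and 0.0903 per Mb outside. Foxa1-N3 had 9 new peaks in all and 0 in gaps, too few to show a difference of either sign. The density was higher in gaps in all 7 lists with a new peak there, from 2.20 times in Foxa1-C3 to 7.77 times in Foxa3-C1.

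**Figure D4:**
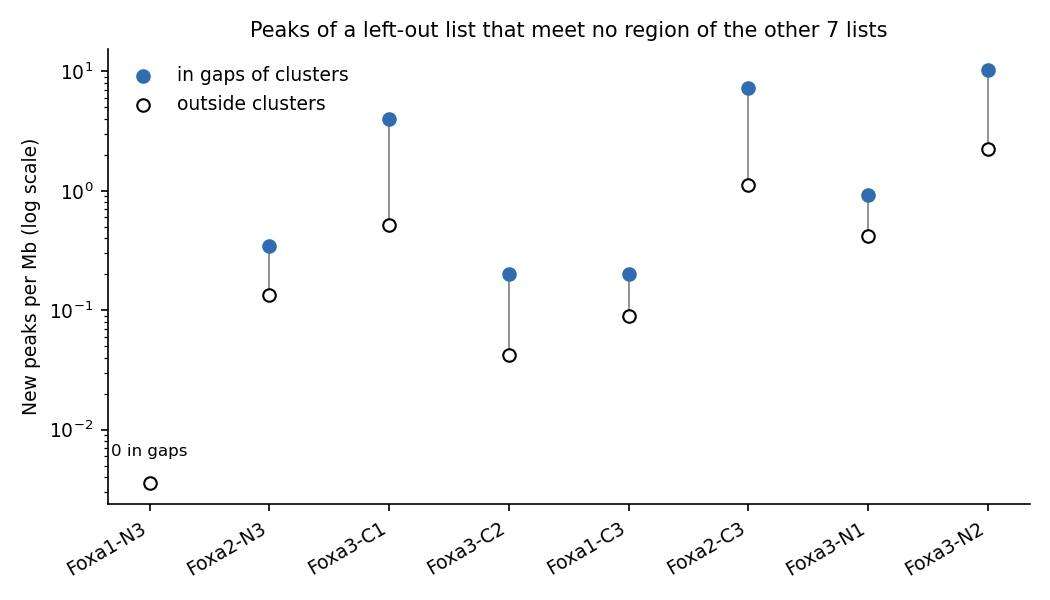
Peaks per Mb (log scale) of each left-out list that meet no region of the other 7 lists, in the gaps of clusters built from those 7 (filled) and outside the clusters (open). The filled point lies above the open one in 7 constructs; Foxa1-N3 had 0 such peaks in gaps.

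As planned, 0.5 peaks were added to both counts, and the mean log2 ratio of gap over outside density was 2.19 ± 0.76 (SD, n = 8 constructs; exact two-sided sign-flip permutation p = 0.00781, the smallest that 8 constructs allow). That value includes Foxa1-N3, whose ratio of 3.14 came from the added 0.5 peaks, which also fixed its sign. The planned p-value thus rests in part on that addition. Over the 7 constructs with a new peak in gaps and with nothing added it was 1.96 ± 0.75, a geometric mean of 3.90 times (exact sign-flip permutation p = 0.0156, the smallest for 7). These 7 were picked by having a peak in gaps, which favours ratios above 1, so that p-value cannot decide the question. When 1 peak in all was added in proportion to length, Foxa1-N3 entered as a negative value and the mean of 1.30 no longer passed 0.05 (exact sign-flip permutation p = 0.0938). The lists rebuilt for each construct overlap, so the 8 values are not fully independent, and density outside counts all sequence, mappable or not.

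The peaks of a left-out list were found in the clusters of the other 7 at shares from 9.16 to 19.6%, while these clusters covered 0.379 to 0.673% of the sequence. Foxa3-N2 had the lowest share, 9.16% (Wilson interval 8.73 to 9.61%), and Foxa2-C3 the next, 12.2% (11.7 to 12.8%). Higher shares were found in Foxa3-N1 (14.7%), Foxa3-C1 (15.1%), Foxa1-C3 (17.5%), Foxa2-N3 (18.4%), Foxa1-N3 (19.5%) and Foxa3-C2 (19.6%). The longer lists had the lower shares, though not in strict order, and the clusters they were set against differed, since leaving out Foxa3-N2 left 469 clusters and leaving out Foxa1-N3 left 807. Inside these clusters, 94.3 to 100% of the left-out peaks met a region of another list, against 61.8 to 98.8% outside. Regions lie closer together inside by the rule. A nearer level than sequence covered is the share of the other lists' regions in their clusters. It was 12.0% without Foxa3-N2, 13.5% without Foxa2-C3, 16.1% without Foxa3-N1 and 15.7% without Foxa3-C1, above the shares of these left-out lists. It was 16.5% without Foxa1-C3, 16.2% without Foxa2-N3, and 16.4% without Foxa1-N3 or Foxa3-C2, below theirs.

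The shares of left-out peaks in clusters were compared by the 3 domain factors with exact two-sided permutation tests over the 70 splits of 4 against 4 constructs. Constructs with the Foxa3 C-terminal domain had a mean share of 13.4 ± 3.56% and those with the Foxa3 N-terminal domain 18.1 ± 2.12% (SD, n = 4 each; exact permutation p = 0.0571, adjusted p = 0.171 over the 3 factors). The groups overlapped, since Foxa1-C3 at 17.5% lay above Foxa3-C1 at 15.1%. Shares were 14.6 ± 4.28% with the Foxa3 DNA-binding domain and 16.9 ± 3.20% with that of Foxa1 or Foxa2 (n = 4 each; exact permutation p = 0.457, adjusted p = 0.514). They were 14.8 ± 4.97% for chimeras of Foxa2 and 16.7 ± 2.23% for those of Foxa1 (n = 4 each; exact permutation p = 0.514, adjusted p = 0.514). The smallest p that this design allows is 0.0286, and none of the 3 factors passed 0.05. Between constructs alike in the other 2 factors, the share was lower with the Foxa3 C-terminal domain in 4 of 4 pairs, from -0.33 points (Foxa3-N1 and Foxa3-C1) to -10.5 points (Foxa3-N2 and Foxa3-C2). In each pair that construct also had the longer list, so domain and list length cannot be told apart there. The lists held 7625 and 7533 peaks in the first of these pairs and 16543 and 3594 in the last. An exact sign-flip permutation over the 4 pairs gave p = 0.125, the smallest that 4 pairs allow. Without Foxa3-N2 the difference by DNA-binding domain turned from -2.26 to 0.59 percentage points. With at most 3594 peaks per list the difference by terminal layout was -0.87 in place of -4.71 percentage points and the groups did not overlap (exact permutation p = 0.0286, adjusted p = 0.0857). Foxa1-N3 still had 956 peaks there, so list length was not equal between the sides.

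With lists of like length 3 of the 4 constructs with the Foxa3 antibody filled the most cluster regions. When each list was limited to its 3594 strongest peaks, the 66 clusters held 298 regions. Foxa3-C1 filled 52.3% of them, Foxa3-C2 filled 52.01% and Foxa2-N3 filled 49.7%. Foxa2-C3 filled 45.6%, Foxa3-N2 41.6%, Foxa1-C3 36.2%, Foxa3-N1 35.6% and Foxa1-N3, whose whole list is shorter, 13.4%. Over all 9458 regions of these limited lists the share was 10.1% for Foxa1-N3 and 37.8 to 38.0% for each other construct, so Foxa1-C3 and Foxa3-N1 were below that level in clusters and the other 6 above it. Of these clusters 2 shared the highest number of regions, 10. One lay at chr13:23622872-23674472, with Foxa3-C1 in 9 regions, Foxa3-C2 in 8, Foxa2-N3 and Foxa3-N2 in 2 each and the other 4 constructs in 0. The other lay within the chromosome 5 cluster described above (chr5:90854048-90897035) and held all 8 constructs, with Foxa2-N3 in 8 regions, Foxa2-C3, Foxa3-N1 and Foxa3-N2 in 6 each, Foxa3-C1 and Foxa3-C2 in 5 each, Foxa1-C3 in 4 and Foxa1-N3 in 1. Part of the lead of Foxa3-C1 and Foxa3-C2 at 3594 peaks lay in a few clusters like the one on chromosome 13. At chr13:23830428-23854373 they filled 6 and 4 of 6 regions and Foxa2-C3 0. At chr1:72265112-72302330 each filled all 5 and Foxa2-C3 filled 1. At chr18:43891773-43910701 Foxa2-C3 led instead, with 5 of 5 regions against 4 and 2. The order without such clusters was not tested. At the 956 strongest peaks, the cluster with the most regions was at chr12:55797473-55839895, where Foxa3-C1 and Foxa3-C2 filled all 7 regions, Foxa1-N3 2, Foxa2-N3 1 and the 4 constructs with the Foxa3 C-terminal domain 0. Which constructs fill the clusters thus depended on how the lists were limited.

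The library titled 4a3_DA1, whose labels name an Hnf4alpha antibody and cells infected with Foxa1 and Hnf4alpha, took no part in the rule. Its title has the stem of those of the Foxa3 chimeras, so its labels conflict. Of its 698 peaks, 186 (26.6%, Wilson interval 23.5 to 30.05%) lay in clusters. Its own peaks are bunched: chained by the same distance they formed 419 groups, of which 71 (16.9%, 13.7 to 20.8%) had a peak in a cluster. Its peaks fell into 65 of the 807 clusters. In clusters 66.7% of its peaks met a Foxa region, and 31.4% did outside. Foxa regions lie closer together in clusters by the rule, so any peak placed there meets one more readily. Whether the difference goes beyond that was not tested. Of the 186 peaks, 103 lay in 14 clusters with 4 or more of them.

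Those 14 clusters were filled in another order than the rest. Foxa3-C1 had a peak in 73.7% of their 114 regions, against 31.3% of the 3709 regions in the 742 clusters with no 4a3_DA1 peak, and Foxa3-C2 in 34.2% against 16.7%. All other constructs filled fewer regions there: Foxa3-N2 47.4% against 72.7%, Foxa2-C3 26.3% against 63.8%, Foxa2-N3 20.2% against 25.4%, Foxa3-N1 9.65% against 32.2%, Foxa1-C3 2.63% against 22.0% and Foxa1-N3 1.75% against 4.69%. Foxa3-C1 had the most regions, ties included, in 10 of the 14. Foxa1-C3 was absent from 11 of them and Foxa3-N1 from 7, while they were absent from 33.4 and 20.2% of the 742 clusters with none. Foxa1-N3 was absent from 13, and from 79.0% of the 742. Regions of 4 or more lists made up 14.9% there and 27.5% in clusters with no such peak. The 14 clusters were picked after the 4a3_DA1 counts were seen, and these shares were not tested.

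**Figure D5:**
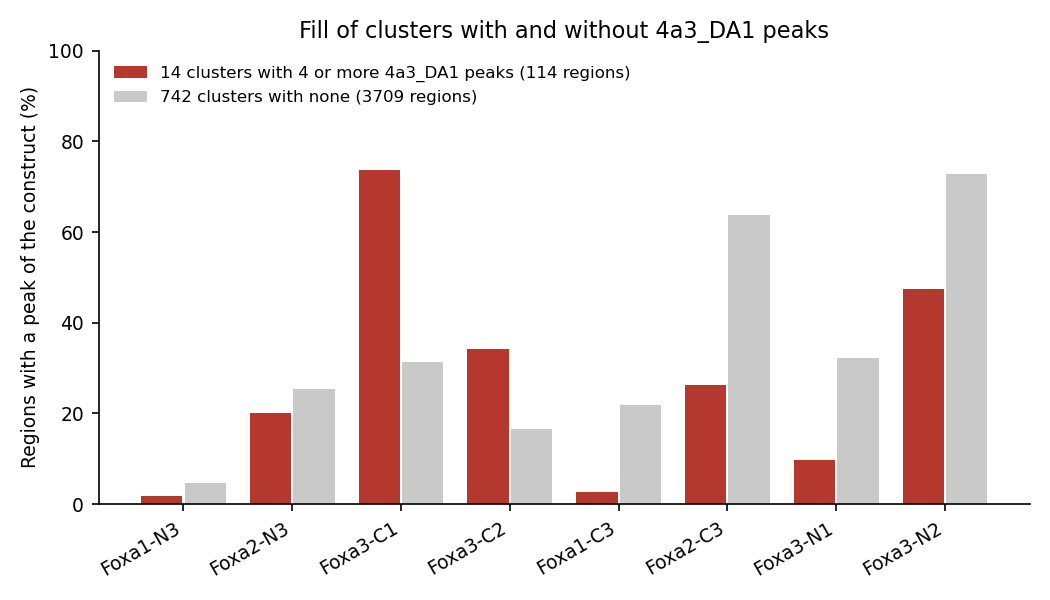
Share of regions with a peak of each construct (%) in the 14 clusters with 4 or more 4a3_DA1 peaks (red) and in the 742 clusters with none (grey). Foxa3-C1 and Foxa3-C2 are higher in the first kind and the other 6 constructs lower.

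The cluster with the most 4a3_DA1 peaks, 13, lay on chromosome 10 (chr10:21713942-21724998), where Foxa3-C1 filled 6 of 8 regions and Foxa2-C3 and Foxa1-N3 none. A cluster on chromosome 19 (chr19:5794114-5810517) held 12, and 1 on chromosome 5 (chr5:143573353-143583606) held 11. The chromosome 19 one had 10 regions, with Foxa3-C1 in 6, Foxa3-C2 in 4, Foxa3-N2 in 3 and Foxa2-N3 in 1. In the chromosome 5 one Foxa3-N2 led with 3 of 4 regions, before Foxa3-C1, Foxa3-C2 and Foxa2-C3 with 2 each. The chromosome 19 cluster lies near the Foxa3-C1 cluster described above, which held 6 of these peaks and in which a merged region of 6339 bp (chr19:5839355-5845693) scored 61.8 in Foxa3-C1, against 31.1 for Foxa3-C2, 29.7 for Foxa2-N3, 11.1 for Foxa3-N2 and 10.7 for Foxa2-C3. On chromosome 13 (chr13:23622677-23685404), a cluster of 17 regions over 62.7 kb held 5 of them. Foxa3-C1 filled 14 of its regions, Foxa3-C2 and Foxa3-N2 filled 8 each, Foxa2-C3 filled 5 and Foxa2-N3 filled 3, and Foxa1-N3, Foxa1-C3 and Foxa3-N1 had none. The libraries absent there include both with the Foxa1 antibody and the shortest list, and the part of antibody, construct and list length was not tested. No sites of this library were found in the chromosome 9 stretch of Foxa3-N2.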

How the data were processed

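ChIP-seq peak lists of 8 Foxa libraries and of the 4a3_DA1 library were used; the 9 input libraries were not analysed here. Per the submitters' processing notes, BWA 0.6.2, MACS2 2.1.0, bedtools 2.16.2 and build mm9 were used; the sources used here do not give the settings of the caller. Each deposited list gives 1 score per peak, of unstated kind (lowest 5.11), used only to describe and rank peaks. Regions and clusters were made in Python 3.11.15 with numpy 2.4.6, scipy 1.17.1 and matplotlib 3.10.9, and their numbers equalled those of bedtools 2.31.1. The routines were tested on simulated data. Depth is unknown, so no count-based error can be given for a peak.

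The rule and the lists of clusters to name were chosen with earlier results of these data known. Named were the 10 clusters with the most regions, the 3 longest others, the 3 with the most regions of all 8 lists, the largest of each kind of majority, for each construct the one with the most regions of its own, and the 3 with the most 4a3_DA1 peaks. Ties went to the cluster with more regions and then to the longer one: 4 clusters had 11 regions, of which 1 was named, 7 had 2 regions of all 8 lists, of which 3 were named, and 2 had 3 regions of Foxa3-N1 alone. Any other position was picked with its values in view. The planned gene lists were not used, since no mm9 annotation was at hand.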

Additional observations from a re-analysis of the deposited data

Results flagged for a closer look

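In the 4a3_DA1 library, which took no part in the rule and entered no domain comparison, 186 peaks lay in the clusters. This list lies outside the main measurement. Grouped by the same distance, 71 of its 419 groups (16.9%) had a peak in a cluster, while 16.4% of all Foxa regions lay in clusters. Groups and regions are unlike units. Of the 186 peaks, 103 lay in 14 clusters. Whether the count is above a background was not tested.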

How the results depend on the processing

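The number of clusters, 807, was 240 with a joining gap of 5000 bp, 1495 with 25000 bp, 1917 with 3 or more regions, 381 with 5 or more, 168 with scores above the pooled median (19.2), 66 with at most 3594 peaks per list and 4 with 956. In that order of settings, clusters with a majority of single-list regions (212) numbered 62, 425, 672, 120, 39, 11 and 0. Those with a majority of regions in 4 or more lists (69) numbered 19, 95, 244, 40, 12, 12 and 0, and they were 15 when 6 or more lists were asked for and 0 when all 8 were. The share of 4a3_DA1 peaks in clusters (26.6%) was 12.5, 39.0, 37.7, 17.6, 4.15, 7.59 and 1.43%, and 17.5% when peaks within 1000 bp were merged. Leaving out each construct in turn gave 469 (without Foxa3-N2) to 807 clusters, 163 to 265 and 27 (without Foxa2-C3) to 69 of either majority, and 18.1 to 26.6% of 4a3_DA1 peaks; the second majority was also 39 without Foxa3-N2, 41 without Foxa3-N1, 45 without Foxa3-C1 and 46 without Foxa2-N3.

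The log2 density ratio kept its sign, and its p-value stayed below 0.05, under these settings. Each of them kept the 0.5 peaks added to both counts, which favours the gaps where a list has few or no new peaks there. Their low p-values thus rest in part on that addition. With 1 peak added in proportion to length the ratio was 1.30 (exact sign-flip permutation p = 0.0938). With 1 construct left out the ratio was 2.05 (without Foxa1-N3) to 2.63. At 956 peaks its value of 6.42 rests on the added 0.5 peaks. The differences in share of left-out lists ran from -4.15 to 0.59 percentage points by DNA-binding domain, from -6.21 to -3.97 by terminal layout and from -3.30 to -0.92 by partner with 1 construct left out. At 956 peaks they were 0.44 and 0.026 by DNA-binding domain and partner, opposite in sign to the values with full lists. By terminal layout the difference at 956 peaks was -0.71, of the same sign as with full lists. None passed 0.05 after adjustment. Limits of 3594 peaks, the omission of the largest cluster the changes to the added peaks and the matching of constructs were chosen after seeing the data. Between constructs alike in the other 2 factors the mean differences were the same by construction, and the exact sign-flip permutation p over 4 pairs was 0.25 by DNA-binding domain, 0.125 by terminal layout and 0.375 by partner (adjusted p = 0.375 for each). Libraries could not be paired by replicate, because each construct has 1 library. The causes were not tested. Depth is unknown, so weak sites missed in short lists cannot be told apart from sites not bound.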
